A study of Homo sapiens with 6 samples.

Results

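Transcript levels of the HOX cluster genes were described across 6 human prostate cancer cell lines. The members were the 39 listed protein-coding genes whose symbol is HOXA, HOXB, HOXC or HOXD followed by a number. PRAC and HOXB13-AS1, which lie beside HOXB13, were added by name. These 41 genes were taken from 51698 genes listed in each library. The HOXA cluster held 11 of them, HOXB 10, HOXC 9 and HOXD 9.

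HOX genes encode homeodomain transcription factors that give cells their position along the body axis, and each cluster is read in gene order, with low-numbered (anterior) genes used toward the head and high-numbered (posterior) genes toward the tail. HOX proteins bind DNA with TALE cofactors of the PBX and MEIS families, and Polycomb and trithorax complexes keep the clusters silent or active. In the prostate, which forms from the tail end of the embryonic gut, HOXB13 is the best known member, a posterior factor that marks the luminal lineage and binds with the androgen receptor.

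The parents LnCaP, VCaP and LAPC4 are established castration-sensitive lines, which grow with androgen present. The castration-resistant lines, each named for its parent, are LnCaP-abl, VCaP-CR and LAPC4-CR. Per the labels, 10% fetal bovine serum was added to RPMI for LnCaP and LAPC4 and to DMEM for VCaP, while all 3 resistant lines were kept in RPMI with 10% charcoal-stripped serum, which is depleted of steroids, and B27. State and medium changed together in every pair and cannot be told apart. There was 1 library per line, so a change within a pair has no replicate check, and each resistant line stands for itself. In bulk RNA, fewer cells of a kind and less RNA per cell cannot be told apart either.

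Libraries held 8661337 to 22433655 counts, with the resistant library the deeper in each pair. Levels are given as scaled FPKM, the deposited FPKM (counts per gene length and library total) divided by a factor per library, and changes as the difference in log2(scaled FPKM + 1), resistant minus parent, which understates the change of low genes. Of 10 markers of prostate luminal epithelium, 10 passed the filter for testing. In LnCaP-abl 4 of them were at least 2-fold lower and 0 higher. In VCaP-CR 1 was lower and 2 were higher, and in LAPC4-CR 4 were lower and 1 was higher. Their median changes were -0.35, 0.11 and -0.52 in log2(scaled FPKM + 1). KLK3, which encodes prostate-specific antigen, was at 610 scaled FPKM in LnCaP and 0.649 in LnCaP-abl. It was at 327 in VCaP and 19.1 in VCaP-CR, with 108 in LAPC4 and 2.02 in LAPC4-CR. The 7 stroma markers summed to 51.9 scaled FPKM in VCaP-CR, of which 50.1 was LUM, against 2.27 to 5.74 in the other libraries; COL1A1, COL1A2, COL3A1 and DCN were under 1 everywhere, and the part of LUM in the VCaP-CR values was not tested. The 5 blood markers summed to 1.09 to 2.49 and the 2 endothelial markers found to 0.416 to 1.70. The level of ERG, the gene rearranged in VCaP cells, was 16.9 and 5.46 scaled FPKM in the VCaP lines and no more than 0.186 elsewhere. Protein-coding genes took 62.8% to 68.3% of the counts in the parents and 68.0% to 79.5% in the resistant lines, more in each resistant line than in its parent, and the part of this in the members' changes was not tested.

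Promoter sequences are shown for 4 members whose levels differed widely between the lines: 2 posterior HOXA genes and the PRAC pair. They come from RefSeq (GRCh38.p14), run from 250 bases before to 50 after the transcript start on the gene's own strand, and carry every CG dinucleotide, the target of DNA methylation, in capitals. HOXA13 is at chr7:27200042-27200341 (minus strand), HOXA11 at chr7:27185183-27185482 (minus strand), PRAC1, the present symbol of PRAC, at chr17:48722469-48722768 (minus strand), and PRAC2, the present symbol of HOXB13-AS1, at chr17:48722935-48723234 (plus strand).
HOXA13: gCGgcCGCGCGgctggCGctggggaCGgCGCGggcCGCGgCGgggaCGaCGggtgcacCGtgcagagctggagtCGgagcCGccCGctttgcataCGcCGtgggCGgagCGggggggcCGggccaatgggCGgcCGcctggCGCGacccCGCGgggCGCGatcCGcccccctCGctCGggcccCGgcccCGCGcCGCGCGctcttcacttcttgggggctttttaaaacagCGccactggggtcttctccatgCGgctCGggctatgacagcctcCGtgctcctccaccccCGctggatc
HOXA11: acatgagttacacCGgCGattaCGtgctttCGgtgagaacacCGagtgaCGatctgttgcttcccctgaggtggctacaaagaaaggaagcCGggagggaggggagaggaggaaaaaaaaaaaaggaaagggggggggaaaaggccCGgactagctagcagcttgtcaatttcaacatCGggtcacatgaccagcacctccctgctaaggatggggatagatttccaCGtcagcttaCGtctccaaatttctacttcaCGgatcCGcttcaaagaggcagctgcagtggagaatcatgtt
PRAC1: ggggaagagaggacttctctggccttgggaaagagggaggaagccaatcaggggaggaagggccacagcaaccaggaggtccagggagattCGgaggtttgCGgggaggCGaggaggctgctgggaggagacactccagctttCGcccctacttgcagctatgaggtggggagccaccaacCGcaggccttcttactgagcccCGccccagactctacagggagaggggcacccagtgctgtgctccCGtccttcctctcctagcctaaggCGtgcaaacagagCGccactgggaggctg
PRAC2: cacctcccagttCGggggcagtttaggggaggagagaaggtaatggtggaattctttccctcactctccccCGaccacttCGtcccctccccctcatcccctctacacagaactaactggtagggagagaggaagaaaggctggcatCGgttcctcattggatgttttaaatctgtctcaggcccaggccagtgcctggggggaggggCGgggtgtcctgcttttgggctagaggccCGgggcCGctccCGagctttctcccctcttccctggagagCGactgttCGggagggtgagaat
The HOXA13 window held 44 CG dinucleotides, the most of the 29 distinct windows matched for 22 of the 41 members, and HOXA11 held 13. PRAC1 and the PRAC2 start shown lie 667 bases apart in opposite orientation, with 9 and 10 CG dinucleotides. RefSeq lists another PRAC2 start, at 48723692, whose window holds 19. The median of the members' 30 windows, with the window shared by HOXC4 and HOXC5 counted for each, was 20. Over all 34796 distinct windows of 300 bases it was 14 (quartiles 4 and 28). Several of the members' windows were HOXA3 starts, and HOXB2 to HOXB9 and HOXB13 had none. The number of CG dinucleotides describes the reference sequence; methylation was not measured in these libraries.

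Most HOX genes were low in every line. At 1 scaled FPKM or more were 7 of the 39 HOX genes in LnCaP (17.9%, against 54.2% of all listed protein-coding genes), 13 in LnCaP-abl (33.3% against 54.2%), 11 in VCaP (28.2% against 54.0%), 11 again in VCaP-CR (28.2% against 53.7%), 9 in LAPC4 (23.1% against 53.2%) and 19 in LAPC4-CR (48.7% against 52.7%). Of the 39 genes, 14 reached it in no library. HOXB13 made up 69.3% and 43.2% of the summed HOX level of LnCaP and LnCaP-abl, 48.2% and 32.9% of that of VCaP and VCaP-CR, and 49.9% of that of LAPC4. In LAPC4-CR the highest HOX gene was HOXB6 at 12.5% of the sum. The map of levels shows a single bright column at HOXB13 in 5 libraries, and a block from HOXB2 to HOXB9 in LAPC4-CR.

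**Figure D1:**
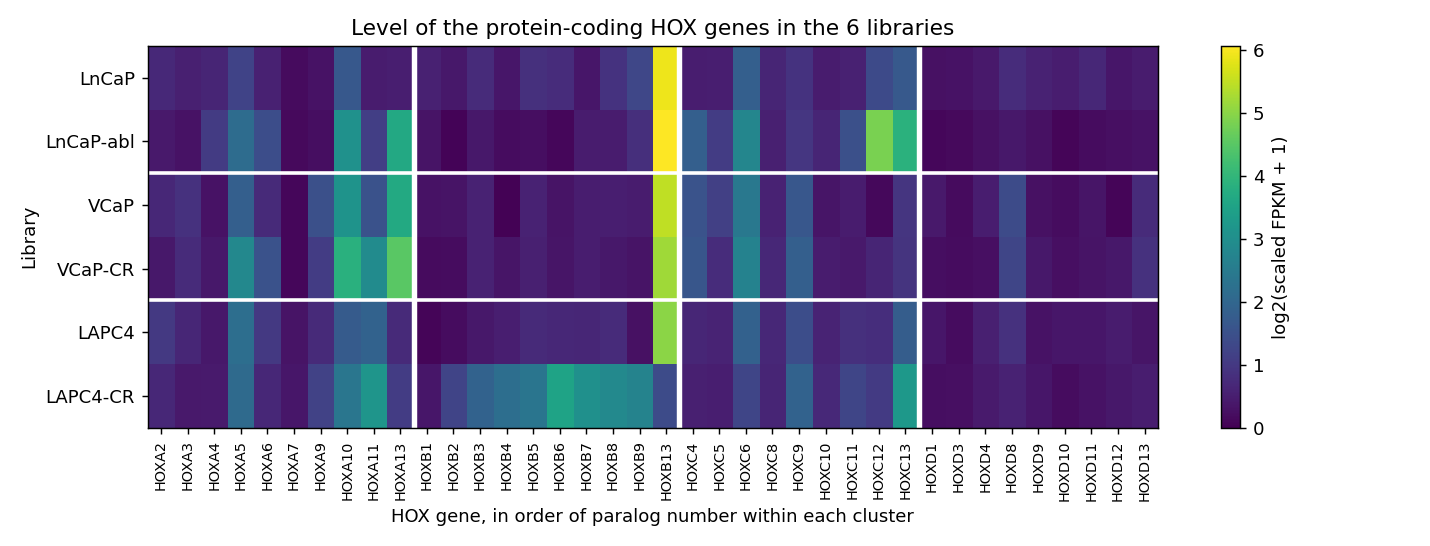
Level of 38 HOX genes (columns, ordered by number within each cluster) in the 6 libraries (rows), as log2(scaled FPKM + 1) by colour. HOXB13 was at 31.3 to 65.8 scaled FPKM in 5 libraries and at 1.60 in LAPC4-CR, where HOXB2 to HOXB9 lay between 1.37 and 10.4.

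Counted by pair, 5 of 39 HOX genes were at least 2-fold higher in LnCaP-abl than in LnCaP (12.8%, where 4.45% of all listed protein-coding genes were) and 0 were at least 2-fold lower (2.51% of all). In VCaP-CR 1 was higher (2.56%, against 1.35% of all) and 0 lower (1.23% of all). In LAPC4-CR 10 were higher (25.6%, against 3.75% of all) and 1 lower (2.56%, against 2.95% of all). The VCaP share and the LAPC4 share of lower genes were near the background. The median change over the 39 HOX genes was -0.09, 0.03 and 0.08 in the pairs of LnCaP, VCaP and LAPC4. Over the 16233 tested genes it was -0.01, -0.01 and -0.02. On this scale, changes of at least 2-fold lay in a minority of the HOX genes in each pair. The pseudocount shrinks the changes of genes under 1 scaled FPKM, so these medians do not show that the low members were unchanged. The counts depended on the pseudocount: with 5 in place of 1, 3 HOX genes were higher in LnCaP-abl, 0 in VCaP-CR and 3 in LAPC4-CR, and with 0.25, 11 were higher and 4 lower in LnCaP-abl and 4 were higher in VCaP-CR.

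**Figure D2:**
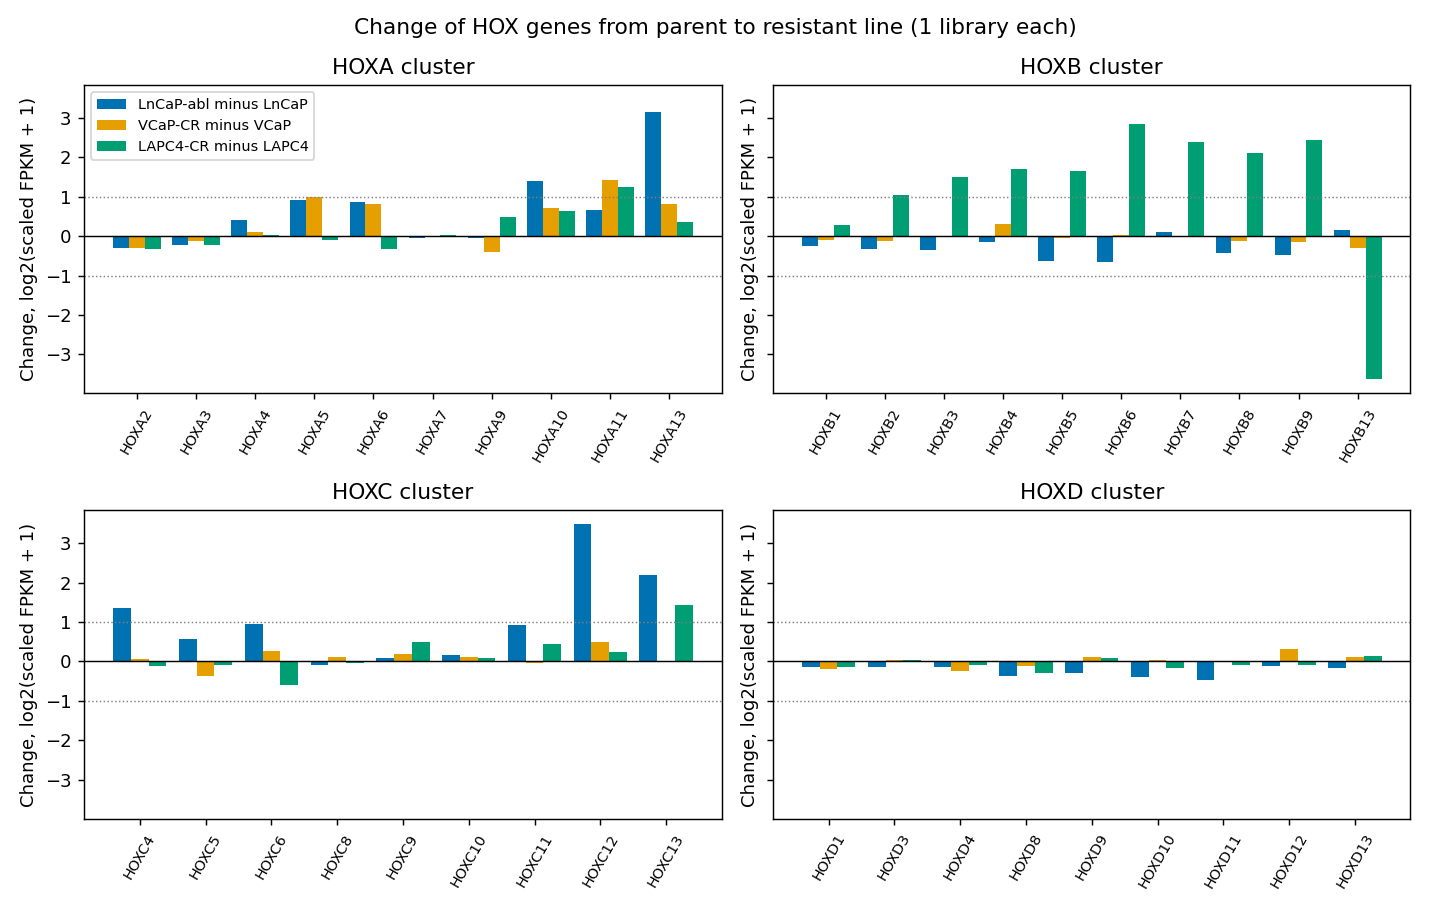
Change of 38 HOX genes from parent to resistant line, in log2(scaled FPKM + 1), by cluster and gene number; each bar is 1 library minus 1 library, and dotted lines mark 2-fold. The bars past 2-fold were those of HOXA10, HOXA13, HOXC4, HOXC12 and HOXC13 in LnCaP-abl, of HOXA11 in VCaP-CR, and of HOXA11, HOXB2 to HOXB9, HOXB13 and HOXC13 in LAPC4-CR.

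The HOXA cluster lies on chromosome 7 with HOXA13 at its high end, at 27206250 in the coordinates of the deposited tables (the submitters' processing notes name hg18). Its summed level was higher in each resistant line, 7.24 against 28.0 scaled FPKM in the LnCaP pair, 28.3 against 52.3 in the VCaP pair and 14.1 against 20.7 in the LAPC4 pair. The posterior genes HOXA9 to HOXA13 summed to 3.17 in LnCaP and 20.3 in LnCaP-abl, 23.1 and 42.7 in the VCaP pair, and 6.40 and 14.5 in the LAPC4 pair.

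HOXA13, a factor of the distal limb and the genitourinary tract (chromosome 7, 27199647 to 27206250), was at 0.417 scaled FPKM in LnCaP and 11.6 in LnCaP-abl, at 11.8 in VCaP and 21.6 in VCaP-CR, with 0.647 in LAPC4 and 1.09 in LAPC4-CR. It was thus high in LnCaP-abl and in both VCaP lines and low in LnCaP and both LAPC4 lines. LnCaP-abl rested on 640 counts and LnCaP on 18, a ratio of 27.8 (95% counting interval 17.5 to 47.3). The ratio was 1.83 in the VCaP pair (1.66 to 2.02) and 1.69 in the LAPC4 pair (1.17 to 2.49). These intervals, exact binomial ones on the split of counts, cover counting error and no difference between cultures.

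HOXA11, needed for uterus, kidney and limb development (27187654 to 27191367), was at 0.374 scaled FPKM in LnCaP and 1.17 in LnCaP-abl, at 1.86 in VCaP and 6.62 in VCaP-CR, with 2.75 in LAPC4 and 7.89 in LAPC4-CR. Each resistant library lay above its parent, and the LnCaP pair was the lowest. The ratio was 3.13 (1.41 to 7.87) in the LnCaP pair, where the parent had 8 counts, 3.56 (2.56 to 5.06) in the VCaP pair and 2.87 (2.26 to 3.68) in the LAPC4 pair. The mean change was 1.11 ± 0.39 (SD, n = 3 pairs) in log2(scaled FPKM + 1).

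HOXA10, a regulator of the developing uterus and the male accessory glands (27176735 to 27186405), was at 2.16, 7.39, 7.67, 13.3, 2.36 and 4.19 scaled FPKM in LnCaP, LnCaP-abl, VCaP, VCaP-CR, LAPC4 and LAPC4-CR. It too was higher in each resistant library, by 1.41, 0.72 and 0.63 in log2(scaled FPKM + 1), and higher in both VCaP lines than in LnCaP or either LAPC4 line. HOXA9, next to HOXA10, was at most at 1.78 scaled FPKM and changed by -0.06, -0.40 and 0.48 in the pairs of LnCaP, VCaP and LAPC4. Its ratio in the LAPC4 pair was 2.0 (1.21 to 3.45), from 20 and 77 counts, and in the VCaP pair it was 0.624 (0.398 to 0.979).

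Among the anterior HOXA genes, HOXA5, a factor of lung and mammary epithelium, was at 1.33 and 3.42 scaled FPKM in LnCaP and LnCaP-abl, 2.58 and 6.13 in VCaP and VCaP-CR, and 3.54 and 3.27 in LAPC4 and LAPC4-CR. HOXA6, next to it, was at 0.474 and 1.70, 0.640 and 1.87, and 1.02 and 0.605 in the same order. Both were higher in LnCaP-abl and VCaP-CR than in the parent and not in LAPC4-CR, with HOXA5 in VCaP-CR just under 2-fold on the log2(scaled FPKM + 1) scale. HOXA2, HOXA3, HOXA4 and HOXA7 stayed at 0.0776 to 1.06 scaled FPKM over all libraries, with no change beyond 0.41. The listed locus of HOXA3 contains those of HOXA4 and HOXA5 on the same strand and overlaps that of HOXA6 by 7186 bases. The split of counts among HOXA3, HOXA4, HOXA5 and HOXA6 is therefore uncertain.

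The HOXB cluster spans 200 kb of chromosome 17, from HOXB1 (start 43961549) to HOXB13 (end 44161539), with a wide gap between HOXB9 and HOXB13 in which PRAC lies. Its sum was 34.9 scaled FPKM in LAPC4 and 43.1 in LAPC4-CR, but from different genes: HOXB13 made up 89.6% of the LAPC4 sum, and HOXB6 led in LAPC4-CR with 24.1%. HOXB2 to HOXB9 together were at 3.56 and 41.2 scaled FPKM in that pair (159 and 3490 counts), against 5.36 and 2.29 in the LnCaP pair and 2.70 and 2.60 in the VCaP pair. All 8 of these genes were at least 2-fold higher in LAPC4-CR, and 0 of 8 in each of LnCaP-abl and VCaP-CR.

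HOXB6 (chromosome 17, 44026638 to 44037353) was at 0.715 scaled FPKM in LnCaP and 0.0830 in LnCaP-abl, at 0.251 in VCaP and 0.275 in VCaP-CR, with 0.589 in LAPC4 and 10.4 in LAPC4-CR. LAPC4-CR stood far above the other 5 libraries, with 1056 counts against 31 in LAPC4, a ratio of 17.7 (12.4 to 26.2). In the LnCaP pair the order was the opposite, with 27 counts in LnCaP and 4 in LnCaP-abl, a level 8.62 times higher in the parent (3.0 to 33.9).

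The largest ratio in the block was that of HOXB9, a factor of the thoracic skeleton and mammary gland, which was at 1.44, 0.750, 0.378, 0.253, 0.200 and 5.53 scaled FPKM in LnCaP, LnCaP-abl, VCaP, VCaP-CR, LAPC4 and LAPC4-CR. Its ratio in the LAPC4 pair was 27.6 (13.3 to 69.1), from 7 and 372 counts. In the LnCaP pair the ratio was below 1, at 0.522 (0.298 to 0.899), and in the VCaP pair its interval held 1. HOXB7 was at 0.283, 0.388, 0.403, 0.409, 0.559 and 7.23 scaled FPKM in that order of libraries, and its ratio in the LAPC4 pair was 12.9 (7.12 to 26.2). LAPC4-CR was again the high library, and the others were all under 1 scaled FPKM. HOXB8, a factor of myeloid progenitors, was at 0.848, 0.369, 0.416, 0.308, 0.676 and 6.20, with a ratio of 9.17 (6.35 to 13.7) in the LAPC4 pair. The listed locus of HOXB7 contains those of HOXB8 and HOXB9, and how the authors counted shared bases is not given in the sources used here, so the split between these 3 genes is uncertain.

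Toward the anterior end the levels in LAPC4-CR were lower. HOXB5 was at 0.794, 0.166, 0.501, 0.458, 0.645 and 4.14 scaled FPKM in LnCaP, LnCaP-abl, VCaP, VCaP-CR, LAPC4 and LAPC4-CR, with a ratio of 6.41 (3.91 to 11.2) in the LAPC4 pair. HOXB4, known for expanding blood stem cells, was at 0.287, 0.158, 0.0272, 0.265, 0.412 and 3.60 in the same order, a ratio of 8.72 (5.56 to 14.5). For both, LAPC4-CR was the high library, and HOXB5 was lowest in LnCaP-abl. HOXB3 was at 0.685, 0.322, 0.483, 0.488, 0.321 and 2.76, a ratio of 8.58 (6.13 to 12.4). HOXB2, a hindbrain gene, was at 0.315, 0.0494, 0.239, 0.146, 0.158 and 1.37, a ratio of 8.68 (4.08 to 22.1). In each of these genes the other 5 libraries stayed under 1 scaled FPKM. HOXB1, the last gene of the cluster, was at 0.0570 in LAPC4 (1 count) and 0.296 in LAPC4-CR (10 counts), a ratio whose interval held 1 (0.739 to 225). From HOXB2 to HOXB5 the ratio intervals overlapped each other, and from HOXB2 to HOXB6 each gene in LAPC4-CR was at a higher level per length than its anterior neighbour. The listed locus of HOXB3 contains that of HOXB4 on the same strand, so the split of counts between HOXB3 and HOXB4, and their order by level, is uncertain.

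HOXB13 (44157124 to 44161539) was at 58.9 scaled FPKM in LnCaP and 65.8 in LnCaP-abl, at 43.6 in VCaP and 35.5 in VCaP-CR, with 31.3 in LAPC4 and 1.60 in LAPC4-CR. It was high in 5 libraries and low in LAPC4-CR, with 1402 counts in LAPC4 and 138 in LAPC4-CR, a level 19.6 times higher in the parent (16.4 to 23.5). In the other pairs the ratio of resistant to parent was 1.12 (1.05 to 1.19) for LnCaP-abl and 0.813 (0.759 to 0.870) for VCaP-CR.

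PRAC, which encodes a small nuclear protein of prostate, rectum and colon (44154083 to 44154883), was at 255 scaled FPKM in LnCaP and 20.1 in LnCaP-abl, at 181 in VCaP and 254 in VCaP-CR, with 204 in LAPC4 and 0.210 in LAPC4-CR. It was high in the 3 parents and VCaP-CR, lower in LnCaP-abl and near nothing in LAPC4-CR, where 2 counts were found against 1007 in LAPC4. The parent was 12.7 times higher in the LnCaP pair (10.2 to 15.9) and 970 times higher in the LAPC4 pair (268 to 8020), while the ratio of VCaP-CR to VCaP was 1.41 (1.29 to 1.54). In LnCaP-abl PRAC was thus far below its level in the parent, though still at 20.1 scaled FPKM, while HOXB13 was close to its level in the parent. In LAPC4-CR both were low.

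HOXB13-AS1 (44155529 to 44157818), between PRAC and HOXB13 and on the opposite strand of both, was at 12.3, 6.42, 13.3, 18.2, 26.8 and 0.207 scaled FPKM in LnCaP, LnCaP-abl, VCaP, VCaP-CR, LAPC4 and LAPC4-CR. As for PRAC, LAPC4-CR was lowest, at 7 counts against 470 in LAPC4 (129 times higher in the parent, 62.3 to 323), and LnCaP-abl next. In the LnCaP pair the parent was 1.91 times higher (1.48 to 2.47). Its locus overlaps that of HOXB13 by 695 bases, and without stated use of strand, reads there cannot be assigned to either gene.

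**Figure D3:**
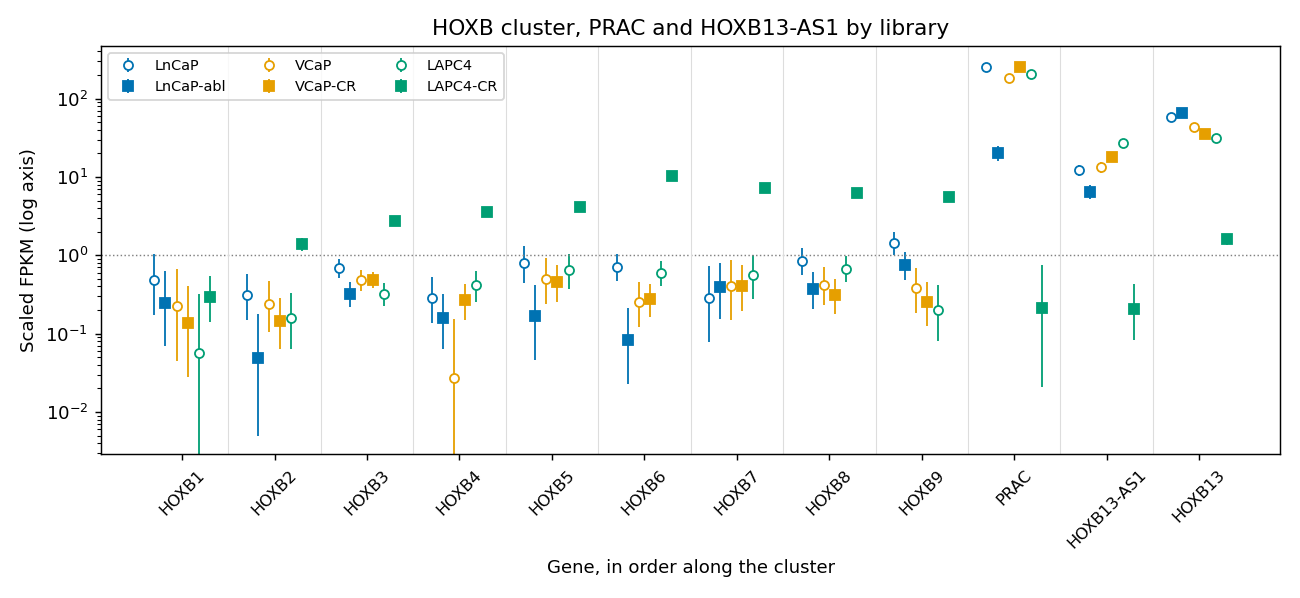
Scaled FPKM (log axis) of the HOXB genes, PRAC and HOXB13-AS1 in gene order; open circles are parents, filled squares resistant lines, and bars exact 95% Poisson intervals of the counts, which cover counting error only and are clipped at the lower edge. From HOXB2 to HOXB9 the LAPC4-CR squares lie above all other libraries, and at PRAC, HOXB13-AS1 and HOXB13 they lie below them.

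The HOXC cluster lies on chromosome 12 (52618802 to 52736081, 117 kb), with HOXC13 at the low coordinate. Its sum was 9.37 scaled FPKM in LnCaP and 54.5 in LnCaP-abl, 11.8 and 13.6 in the VCaP pair, and 10.6 and 17.0 in the LAPC4 pair. HOXC11 to HOXC13, the posterior end, took 4.23 of the sum in LnCaP and 43.0 in LnCaP-abl, with 1.40 and 1.78 in the VCaP pair and 4.0 and 10.8 in the LAPC4 pair.

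HOXC12 (52634885 to 52636713) was at 1.56 scaled FPKM in LnCaP and 27.5 in LnCaP-abl, at 0.0982 in VCaP and 0.539 in VCaP-CR, with 0.744 in LAPC4 and 1.04 in LAPC4-CR. LnCaP-abl stood apart with 339 counts, and the other 5 libraries had 1 to 27. The ratio in the LnCaP pair was 17.7 (10.6 to 32.0), and in the other pairs the interval of the ratio held 1.

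HOXC13, a regulator of hair keratins (52618802 to 52626595), was at 2.22, 13.7, 0.923, 0.895, 2.48 and 8.36 scaled FPKM in LnCaP, LnCaP-abl, VCaP, VCaP-CR, LAPC4 and LAPC4-CR. It was higher in LnCaP-abl and LAPC4-CR than in their parents, with ratios of 6.17 (4.59 to 8.46) and 3.38 (2.65 to 4.34), and low in both VCaP lines, with a ratio of 0.970 (0.553 to 1.74). HOXC11, on the other side of HOXC12, had ratios of 3.86 (2.15 to 7.42), 0.914 (0.417 to 2.08) and 1.79 (1.21 to 2.73) in the pairs of LnCaP, VCaP and LAPC4, at levels of at most 1.79 scaled FPKM.

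**Figure D4:**
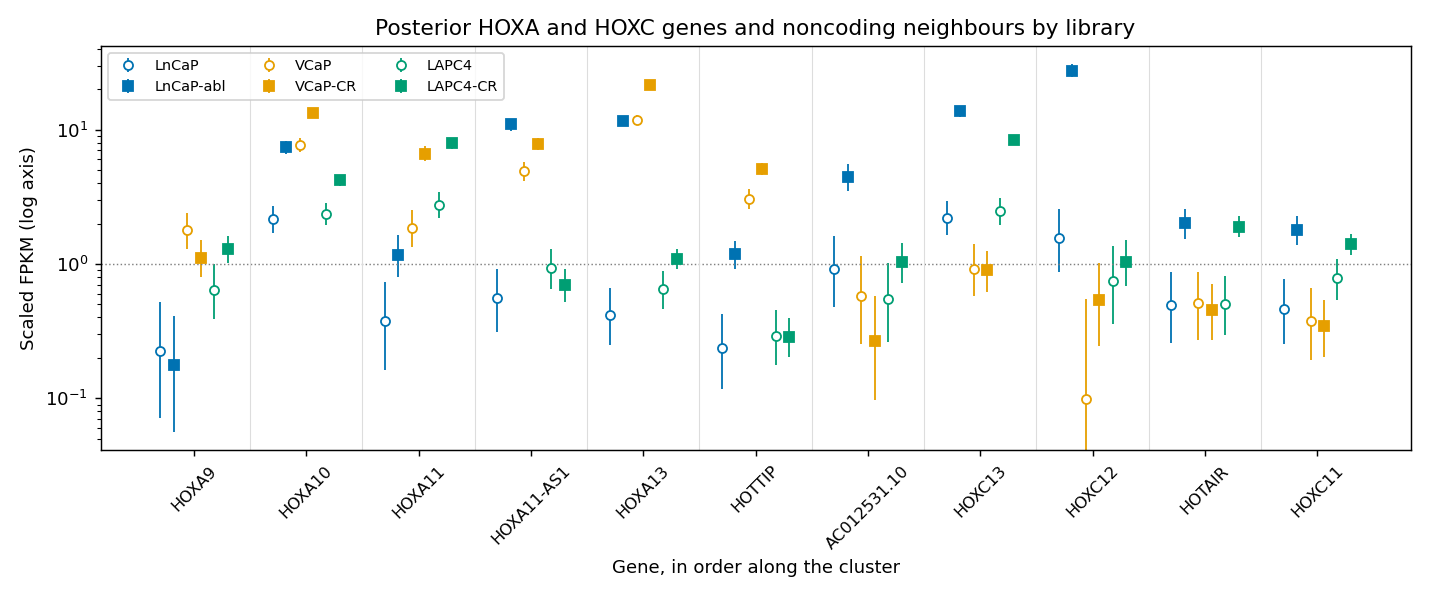
Scaled FPKM (log axis) of posterior HOXA and HOXC genes and the noncoding genes among them, in order along each cluster; open circles are parents, filled squares resistant lines, and bars exact 95% Poisson intervals of the counts, which cover counting error only. HOXA13 and HOXA11-AS1 share the split of LnCaP-abl, VCaP and VCaP-CR above the rest, while HOXC12 is high in LnCaP-abl.

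At the other end of HOXC, HOXC6, an embryonic trunk gene used in urine tests for prostate cancer, was at 2.56, 5.90, 4.39, 5.48, 2.67 and 1.42 scaled FPKM in LnCaP, LnCaP-abl, VCaP, VCaP-CR, LAPC4 and LAPC4-CR. HOXC4 was at 0.396, 2.54, 1.95, 2.08, 0.568 and 0.443 in the same order. Both were higher in LnCaP-abl than in LnCaP, by 0.95 and 1.34 in log2(scaled FPKM + 1), and lay below 3 scaled FPKM in LnCaP and both LAPC4 lines. HOXC9, a trunk gene, was at 0.836, 0.957, 2.13, 2.56, 1.71 and 2.78, with changes of 0.09, 0.19 and 0.48. HOXC5, HOXC8 and HOXC10 lay between 0.263 and 1.21 scaled FPKM, with a ratio interval that held 1 in every pair except the LnCaP pair for HOXC5 (2.61, 1.21 to 6.25). The listed loci of HOXC4, HOXC5 and HOXC6 overlap each other, and those of HOXC5 and HOXC6 contain those of HOXC8 and HOXC9. The HOXC5 locus also overlaps that of HOXC10. The split of counts among all these genes is therefore uncertain.

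The HOXD cluster (chromosome 2, 176665865 to 176763934, 98.1 kb), known for its part in limb patterning, was low in every library. Its 9 genes summed to 1.54 to 3.81 scaled FPKM, and 0 of 9 reached the mean of 1 scaled FPKM needed for testing. HOXD8 was the highest, at 0.698, 0.322, 1.59, 1.40, 0.825 and 0.489 scaled FPKM in LnCaP, LnCaP-abl, VCaP, VCaP-CR, LAPC4 and LAPC4-CR, the other 8 staying at or under 0.835. All 9 were lower in LnCaP-abl than in LnCaP, by log2(scaled FPKM + 1) changes of -0.48 to -0.13, from 2 to 17 counts a gene and library. The ratio interval lay below 1 for HOXD10 (0.157, 0.0167 to 0.735) and HOXD11 (0.241, 0.0572 to 0.780) in that pair, and for the other 7 genes, and for all 9 in the VCaP and LAPC4 pairs, a difference was not detectable at this depth.

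Noncoding and other genes inside the clusters were read beside the members. Of 41 such entries, 6 were miRNA genes listed at 0 counts in every library, and 7 of the other 35 were tested. HOXA11-AS1, on the strand opposite HOXA11, was at 0.555 scaled FPKM in LnCaP and 10.9 in LnCaP-abl, at 4.91 in VCaP and 7.78 in VCaP-CR, with 0.929 in LAPC4 and 0.703 in LAPC4-CR. Its 3 high libraries were those in which HOXA13 was high, whereas HOXA11, whose locus it overlaps by 706 bases, was highest in LAPC4-CR. HOTTIP, a noncoding RNA past HOXA13 that binds the WDR5 subunit of trithorax complexes, was at 0.237, 1.18, 3.06, 5.11, 0.293 and 0.288, and was again high in both VCaP lines and higher in LnCaP-abl than in LnCaP. The listed loci of HOTTIP and HOXA13 overlap by 1532 bases.

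HOTAIR, a noncoding RNA of the HOXC cluster known to bind Polycomb proteins, was at 0.498 scaled FPKM in LnCaP and 2.01 in LnCaP-abl, at 0.511 in VCaP and 0.455 in VCaP-CR, with 0.506 in LAPC4 and 1.90 in LAPC4-CR. Like HOXC11 and HOXC13, it was higher in LnCaP-abl and LAPC4-CR than in their parents, with ratios of 4.05 (2.16 to 8.25) and 3.76 (2.25 to 6.66). The listed loci of HOTAIR and HOXC11 overlap by 1831 bases on opposite strands. Without stated use of strand, reads there cannot be assigned to either gene. HOTAIRM1, a noncoding RNA of the anterior HOXA cluster, was at 1.32, 2.55, 0.668, 0.560, 3.16 and 1.28. In the HOXB cluster RP11-357H14.7 was at 2.17 in LAPC4-CR and 0.115 to 0.343 elsewhere, a ratio of 6.31 (3.59 to 12.1) in the LAPC4 pair. Its listed locus contains those of HOXB4, HOXB5 and HOXB6.

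Whether members differed between the states across all 3 pairs was tested with edgeR, with the parental line as a block. Of 16233 tested genes 0 were called at an adjusted p under 0.05 (0.0%), with 724 higher (4.46%) and 550 lower (3.39%) at an unadjusted p under 0.05. Of the 18 members tested, 16 of them HOX genes, 0 were called, and the smallest adjusted p was 0.592. An unadjusted edgeR p under 0.05 was found for HOXA11 (0.00156), HOXA10 (0.0103), HOXC12 (0.0208) and HOXC13 (0.0252), each higher in the resistant state. HOXC12 was at 27.5 scaled FPKM in LnCaP-abl and at 0.0982 to 1.56 in the other libraries, so it passed the filter mainly through a resistant library, and its p is given as a description. DESeq2 called 138 of 13400 genes (1.03%), among them HOXA11 (DESeq2 adjusted p = 0.0121). The edgeR log2 change of HOXA11 was 1.67 (SE 0.32, edgeR adjusted p = 0.592), and it was higher in 3 of 3 pairs. Limma called 0 genes. For HOXB5, HOXB6, HOXB8 and HOXB9, whose changes were below or near 0 outside the LAPC4 pair, the standard error was larger than the edgeR log2 change, as in 0.71 (SE 1.44) for HOXB6. HOXB5 to HOXB9 passed the filter through the resistant library LAPC4-CR, so their values in this test are likewise given as a description.

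Whether members differed among the 3 line backgrounds beyond the spread left after the state effect was tested in the same edgeR model. It called 2066 of 16233 genes (12.7%) and 2 of the 18 tested members, a share near that of all genes. These were HOXA11 (edgeR adjusted p = 0.0200) and HOXC12 (edgeR adjusted p = 0.0357), followed by HOXA10 (0.0540) and HOXA13 (0.0580). HOXA11 was lowest in the LnCaP background and HOXC12 highest in it. The call of HOXC12 was lost without LnCaP-abl (edgeR adjusted p = 0.140), the library where it was high, and without VCaP-CR (0.0930). DESeq2 called 6 of the 18 members and 25.5% of 15603 genes. Limma called 1 of the 18, HOXA11, and 1869 of 16233 genes. A gene that passed the filter through 1 high library had to differ between libraries, so the count of called members is given as a description. Parent and derived line are the 2 libraries of a background, and nothing in the labels says that they came from separate cultures of it.

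Across the 39 HOX genes, levels in log2(scaled FPKM + 1) of parent and resistant line correlated at a Pearson's r of 0.954 in the VCaP pair, 0.754 in the LnCaP pair and 0.305 in the LAPC4 pair. Over all tested genes these values were 0.957, 0.886 and 0.912. LAPC4-CR had an r of 0.156 to 0.305 with every other library over the HOX genes, while LnCaP and LAPC4, of different lines, had 0.885. The 39 points of each correlation share their libraries and their clusters and are not independent. Most of them were low, while HOXB13 was at 1.60 scaled FPKM in LAPC4-CR and at 31.3 to 65.8 in every other library. That gene therefore weighs heavily in r, and r was not computed without it.

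Genes that work with the HOX clusters were counted from lists, and edgeR called 0 of them between the states in any list. Of the 9 TALE cofactors, which bind DNA together with HOX proteins, 5 were tested. PBX3 was at 1.29, 1.36, 9.68, 13.2, 2.68 and 5.62 scaled FPKM in LnCaP, LnCaP-abl, VCaP, VCaP-CR, LAPC4 and LAPC4-CR. It was high in both VCaP lines. In the same order MEIS1 was at 1.18, 0.281, 0.340, 0.600, 1.91 and 2.26, and MEIS2 at 0.216 to 0.616 scaled FPKM.

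Of 22 Polycomb genes, which silence HOX clusters, 21 were tested and 0 had an unadjusted edgeR p under 0.05; the median changes were 0.22, 0.08 and 0.04 in the pairs of LnCaP, VCaP and LAPC4. EZH2, the H3K27 methyltransferase, was at 9.72, 7.03, 12.1, 7.90, 10.7 and 15.5 scaled FPKM in LnCaP, LnCaP-abl, VCaP, VCaP-CR, LAPC4 and LAPC4-CR. The 2 largest changes were in PHF1 (1.02 in LnCaP-abl) and PHC2 (-0.96 in LAPC4-CR). Of the trithorax and H3K27 demethylase genes, which keep HOX clusters active, 13 were found and tested. An unadjusted edgeR p under 0.05 was found for 4, all with higher levels in the resistant state (MLL, MLL2, MLL3 and ASH1L). Of all tested genes, 4.46% were higher at that threshold. MLL3 was called by DESeq2 (DESeq2 adjusted p = 0.0288) and not by edgeR (edgeR adjusted p = 0.592). The largest changes in that list were those of ASH2L and MLL3 in LAPC4-CR, at 1.42 and 1.24.

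Genes at the borders of the clusters were read for levels past the cluster ends. Of 11 found, 8 were tested, and 1 had an unadjusted edgeR p under 0.05 (0.00229). This was SKAP2, on the anterior side of the HOXA cluster, at 5.46, 13.04, 0.926, 2.53, 4.25 and 8.60 scaled FPKM in LnCaP, LnCaP-abl, VCaP, VCaP-CR, LAPC4 and LAPC4-CR. It was higher in 3 of 3 resistant lines, as the HOXA sum was, by 1.12, 0.87 and 0.87 (edgeR adjusted p = 0.592, DESeq2 adjusted p = 0.0206). TTLL6, past the HOXB13 end of the HOXB cluster, was at 0.932, 0.282, 0.681, 0.232, 0.820 and 0.189, lower in 3 of 3 resistant lines with ratios of 0.303 (0.162 to 0.540), 0.341 (0.184 to 0.614) and 0.231 (0.136 to 0.380). It was not among the genes tested. SKAP1, the gene on the HOXB1 side of the HOXB cluster, was at 0.891, 1.13, 0.324, 0.277, 0.197 and 4.16 scaled FPKM in LnCaP, LnCaP-abl, VCaP, VCaP-CR, LAPC4 and LAPC4-CR. It was therefore highest in LAPC4-CR, as HOXB2 to HOXB9 were, with a ratio of 21.2 (8.11 to 78.6), although HOXB1 between them stayed at 0.296. CBX5, on the HOXC4 side of the HOXC cluster, was at 5.76 in LAPC4 and 36.5 in LAPC4-CR and at 16.2 to 26.5 elsewhere.

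In the list of retinoic acid genes, whose product induces HOX genes in embryos, 9 of 16 were tested, and 1 had an unadjusted edgeR p under 0.05. ALDH1A3, a retinoic acid synthesis enzyme, changed by -2.72, -0.43 and -1.89 in log2(scaled FPKM + 1) in the pairs of LnCaP, VCaP and LAPC4, and DHRS3, which turns retinal back to retinol, by 1.03, 0.16 and -2.11. All 9 ParaHox relatives listed were below the level for testing, with sums of 2.85 to 5.31 scaled FPKM.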

How the data were processed

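Per the labels' protocols, RNA was extracted with RNeasy and sequenced by means of a SOLiD total RNA kit. Each deposited table gives counts per gene, and FPKM made from them by the authors, per the file headers. The submitters' processing notes name HTSeq and hg18 without a role; for the aligner, the annotation, strand and multiply matching reads, the method is not given in the sources used here. Starts are printed 1 higher than in the deposited coordinates, which count from 0. The deposited FPKM was rebuilt within 1% from count, gene length and library total, with lengths from the other 5 tables for LAPC4-CR.

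From these values, entries were kept by Ensembl identifier, 8763 entries of small RNA classes were left out and 42935 remained. FPKM was divided by a factor per library (0.847 to 1.11, the median, over the 11601 genes with at least 1 FPKM in each of the 6 libraries, of the ratio to their geometric mean). A mean of 1 scaled FPKM or more was required for testing, which 16233 genes met. The states were compared with edgeR 4.0.16 (R 4.3.3; quasi-likelihood test on counts, TMM factors) with the parental line as a block, taken from the line names, and the line backgrounds with an F test on the line terms of the same model; p-values were adjusted by Benjamini-Hochberg over all tested genes, threshold 0.05. The LnCaP lines carry replicate number 1, the VCaP lines 2 and the LAPC4 lines 3. On simulated counts for 16233 genes with a dispersion of 0.121, the share recovered between states was 75.0% for 4-fold and 100% for 16-fold changes (3 false calls), and 65.0% and 100% between line backgrounds (4 false calls). In the simulation with no change it made 0 calls in either comparison. The simulation gave every gene this same dispersion, and changed genes were picked only from those with higher counts. Each had the same change in every pair or, between line backgrounds, in both libraries of 1 line. The recovered shares therefore do not carry over to genes whose change or spread differs between pairs. The 0 calls between states do not show that large changes were absent. Recovery at the counts of low members, such as HOXA6 with 7 to 48 counts a library, was not tested.

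Changes within a pair carry no test; "2-fold" means a change of at least 1 in log2(scaled FPKM + 1). Ratios compare counts per scaled library size, with exact 95% binomial intervals, which cover counting error only. Of the 41 members, 36 have a locus that overlaps another listed entry and 21 that of another member. Median changes over all tested genes lay between -0.02 and 0.05 with the scaled FPKM, the deposited FPKM and CPM with TMM factors, and at -0.09, -0.01 and -0.07 in the pairs of LnCaP, VCaP and LAPC4 with factors over protein-coding genes. The alternatives were DESeq2 1.42.0, limma 3.58.1 on log2(scaled FPKM + 1), no filter on low values (35282 genes with 10 counts or more), no block, other pseudocounts and scalings, and leaving out libraries. Values in every library are given for members tested or changed 2-fold in any pair, and for PRAC and HOXB13-AS1. Of the other lists the 2 tested genes with the largest change in a pair are named, with EZH2, MEIS1 and MEIS2; KLK3, LUM, HOXA9, HOXC11, HOXB1, HOXD8, SKAP2, TTLL6 and the noncoding genes described were chosen after their values were seen. The members, lists and rules were chosen with earlier results of these data known. The values of 1 HOX gene and 1 cofactor are not reported here; counts, sums and correlations over the 39 HOX genes include that gene, and the figures leave it out.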

Additional observations from a re-analysis of the deposited data

Results flagged for a closer look

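In 7 cases a member changed in opposite directions in the resistant lines of 2 parents, by at least 2-fold in 1 or both of them, with counts whose 95% intervals did not overlap in either pair. The difference was not tested in any of them, since each pair has 1 library per line. Changes are in log2(scaled FPKM + 1), resistant minus parent.

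PRAC was lower in LnCaP-abl (-3.60) and in LAPC4-CR (-7.40) and higher in VCaP-CR (0.49), differences between the changes of -4.09 and -7.89. HOXB13-AS1, which starts on the opposite strand from PRAC, was lower in LAPC4-CR (-4.53) and higher in VCaP-CR (0.43), a difference of -4.96. HOXB13 was lower in LAPC4-CR (-3.64) and slightly higher in LnCaP-abl (0.16), a difference of -3.79.

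The other cases were anterior and central HOXB genes, higher in LAPC4-CR and lower in LnCaP-abl. HOXB6 changed by 2.84 and -0.66, a difference of 3.51. HOXB5 changed by 1.64 and -0.62, a difference of 2.26. HOXB3 changed by 1.51 and -0.35, a difference of 1.86.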

How the results depend on the processing

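Between the states, DESeq2 called 138 genes and 1 member where edgeR called 0 of each; leaving out 1 pair, edgeR called 4 to 33 genes (33 without the VCaP pair) and 0 members, and 0 genes and 0 members with no replicate block, with no filter on low values or with limma. Between line backgrounds, DESeq2 called 3978 genes and 6 members, against 2066 genes and 2 of 18 members with edgeR. Without a filter edgeR called 2641 of 35282 genes and 5 of 41 members. Limma called 1869 of 16233 genes and 1 of 18 members. Leaving out 1 library gave 979 (without VCaP-CR) to 3550 genes (without LnCaP), with 1273 without VCaP, and 2 to 11 members (11 without LAPC4, 10 without LnCaP, 5 without VCaP, 4 without LnCaP-abl).

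With a pseudocount of 0.25, LnCaP-abl had 11 HOX genes past 2-fold upward and 4 downward, and VCaP-CR 4 upward; with 5, the upward counts were 3 in LnCaP-abl, 0 in VCaP-CR and 3 in LAPC4-CR. The VCaP count was 2 with the deposited FPKM and with a factor over protein-coding genes. The summed HOXA change in LnCaP-abl (1.81) was 2.24 in CPM with TMM factors and 1.15 without HOXA13, and that of HOXC (2.42) was 2.07 and, without HOXC12, 1.67. Without HOXB13 the summed HOXB change was -0.95 in LnCaP-abl, -0.069 in VCaP-CR and 3.20 in LAPC4-CR, where it was 0.08, -0.28 and 0.30 with it. Of 20 changes of at least 2-fold, all 80 alternative values kept the direction and 10 fell under 2-fold. Other causes of these shifts were not tested. Depth limits the low genes: 1 count in HOXB13 was worth 0.0116 to 0.0311 FPKM.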
